A study of Mus musculus with 2 samples.

Results

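The 27 genes described here encode enzymes of cholesterol synthesis, the SREBP system that controls them, and proteins of sterol transport and efflux. They were taken by symbol from the 32285 genes of the count matrices: 18 enzymes (7 of the mevalonate steps, 11 of the squalene and sterol steps), 5 SREBP system genes and 4 transport genes. All 27 had UMIs (unique molecular identifiers, 1 per captured RNA molecule) in each library. The list does not hold every step of the pathway. The tissue was sensory epithelium from cochleae of wild-type C57BL/6J mice aged 4 to 6 weeks, with no transgene. All ears received noise of 105 dB in the octave band of 8 to 16 kHz for 2 hours and were dissected 2 days later. The NIHL library (noise-induced hearing loss, noise only) came from 5 untreated ears, and the Drug-NIHL library came from the opposite ears of those mice, which had been dosed with the drug (90 mg/ml) ahead of the exposure. The series title has VPA-NIHL for that group, and the labels used here do not give the route of dosing. The ears of a group were captured as 1 library, so no test between groups was possible, and treatment and library cannot be told apart. The intervals below cover counting error only.

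Cholesterol is built from acetyl-CoA through mevalonate and isoprenoids to squalene, which is closed into lanosterol and trimmed to cholesterol. Membrane sterol sets the rate: when it is low, SCAP carries SREBP proteins from the endoplasmic reticulum to the Golgi, where they are cut and then activate the enzyme genes. INSIG proteins hold SCAP back when sterol is plentiful. LXR receptors act the other way and raise the efflux pumps ABCA1 and ABCG1, which load cholesterol onto lipoproteins such as APOE. Myelin is rich in cholesterol, most of which oligodendrocytes and Schwann cells make in place, while mature neurons can take up part of theirs from glia.

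After filtering, 16618 NIHL and 17536 Drug-NIHL cells were left, with 33790872 and 30725156 UMIs and a median of 1128 UMIs per cell in each. The median mitochondrial share was 4.86% in NIHL and 6.72% in Drug-NIHL, and 4.62% and 12.9% of cells had been removed as predicted doublets. Of the barcode sequences kept, 87 occurred in both libraries. Cells were clustered without the 27 genes, so their levels did not shape the classes. Clusters were named by markers of other genes, each name standing for cells like that type. The label of sensory epithelium covers a mixed tissue: myelinating Schwann-like cells were 33.7% and 20.4% of cells, against 0.638% and 0.884% for hair cell-like cells. Oligodendrocyte-like cells, 254 in NIHL and 307 in Drug-NIHL, expressed Mog (1585 and 1509 CPM) and Mobp (2143 and 1775 CPM). CPM scales the gene's UMIs to a fixed total of UMIs of that class and library.

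Oligodendrocyte-like cells held the highest summed level of the 18 enzymes among the 18 classes that reached 100 cells in NIHL and in Drug-NIHL. The sum was 7257 CPM (95% interval 7090 to 7426) in NIHL and 4109 CPM (3964 to 4257) in Drug-NIHL. Myelinating Schwann-like cells followed at 2848 CPM in NIHL and 2513 CPM in Drug-NIHL, close to hair cell-like cells at 2561 and 2903 CPM. The intervals of the Schwann-like (2801 to 2895) and hair cell-like (2396 to 2735) sums did not overlap in NIHL. The order was turned in Drug-NIHL, where they did not overlap either (2455 to 2572 against 2722 to 3093). The hair cell-like sum differed with depth, at 3448 CPM from 1000 to 2000 UMIs and 2313 CPM from 4000 to 8000 in NIHL. Hair cell-like cells had a median of 2376 UMIs in NIHL and 1811 in Drug-NIHL, so no change of order is read from these sums. Non-myelinating Schwann or satellite glia-like cells stood at 1758 and 1601 CPM. The other classes lay lower, down to 399.9 CPM in neutrophil-like cells of NIHL and 286 CPM in mucosal epithelium-like cells of Drug-NIHL. Neuron-like cells, at 613 and 743 CPM, were among these lower classes. The oligodendrocyte-like class had 1.53% of the NIHL cells and 17.3% of the NIHL library's enzyme UMIs. In Drug-NIHL it had 1.75% of the cells and 10.4% of those UMIs.

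**Figure D1:**
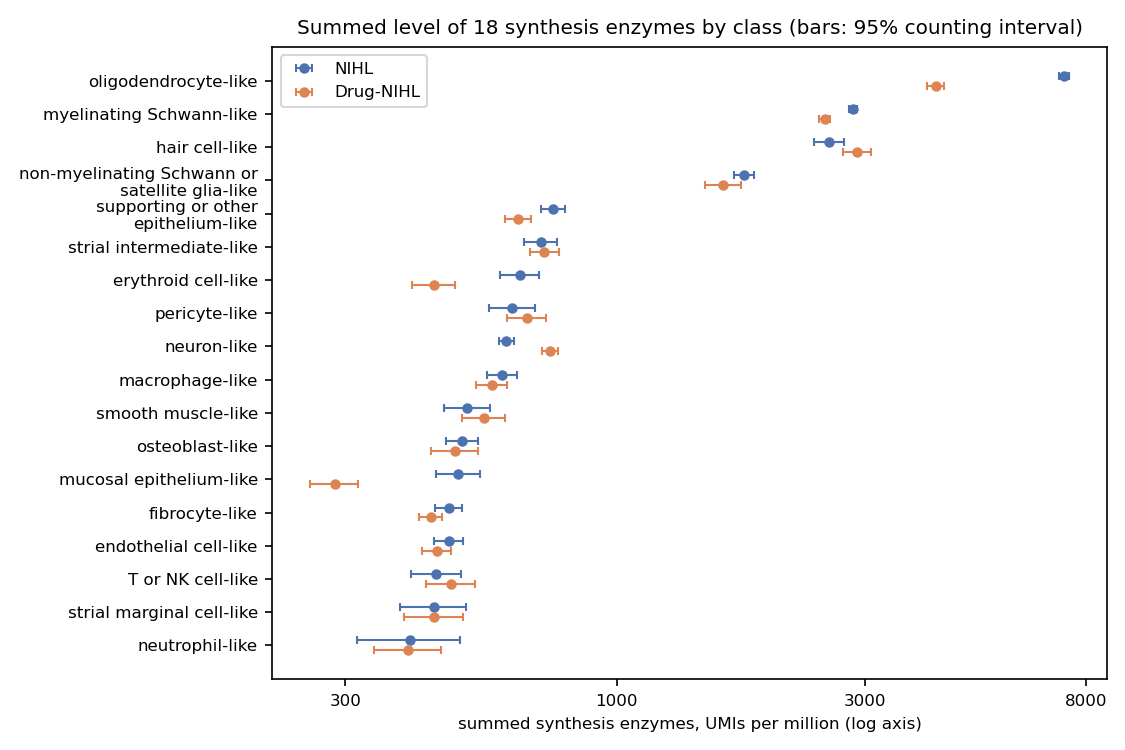
Summed level of the 18 synthesis enzymes (CPM, log axis) in each of 18 cell classes, in NIHL (blue) and Drug-NIHL (orange), with bars for the 95% counting interval. The oligodendrocyte-like class stands at 7257 and 4109, above every other class in each library.

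Among single enzymes in NIHL, 17 of 18 were highest in oligodendrocyte-like cells, and for 16 of these the interval lay above that of the next class. Hmgcs1 encodes the synthase that makes HMG-CoA at the entry to the pathway. Its level in NIHL was 2247 CPM in oligodendrocyte-like, 799.5 CPM in myelinating Schwann-like and 36.8 CPM in T or NK cell-like cells, the lowest class. The last of these may also hold myeloid cells: Prtn3, Plac8 and Ly6c2 are among its leading genes and a finer clustering set apart a monocyte or dendritic cell-like cluster. Fdps, which makes farnesyl diphosphate, stood at 841 CPM in oligodendrocyte-like and 522 CPM in hair cell-like cells. In Drug-NIHL 14 enzymes were highest in the oligodendrocyte-like class, 5 of them with an interval above that of the next class. The other 4 (Pmvk, Fdps, Tm7sf2 and Hsd17b7) were highest in hair cell-like cells there. Fdps was then at 601 CPM in hair cell-like and 442 CPM in oligodendrocyte-like cells, with intervals that did not overlap. Tm7sf2 was the enzyme whose leading classes overlapped in NIHL, at 19.1 CPM in oligodendrocyte-like and 17.2 CPM in hair cell-like cells. These orders cover the 18 classes and leave out unnamed clusters and astrocyte-like cells (26 in NIHL and 200 in Drug-NIHL). In Drug-NIHL astrocyte-like cells passed the leading class for some enzymes, such as Mvd (112 against 53.7 CPM) and Dhcr7 (112 against 61.8 CPM). For others they did not, such as Lss (56.2 against 56.4 CPM) and Hsd17b7 (64.8 against 752 CPM).

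**Figure D2:**
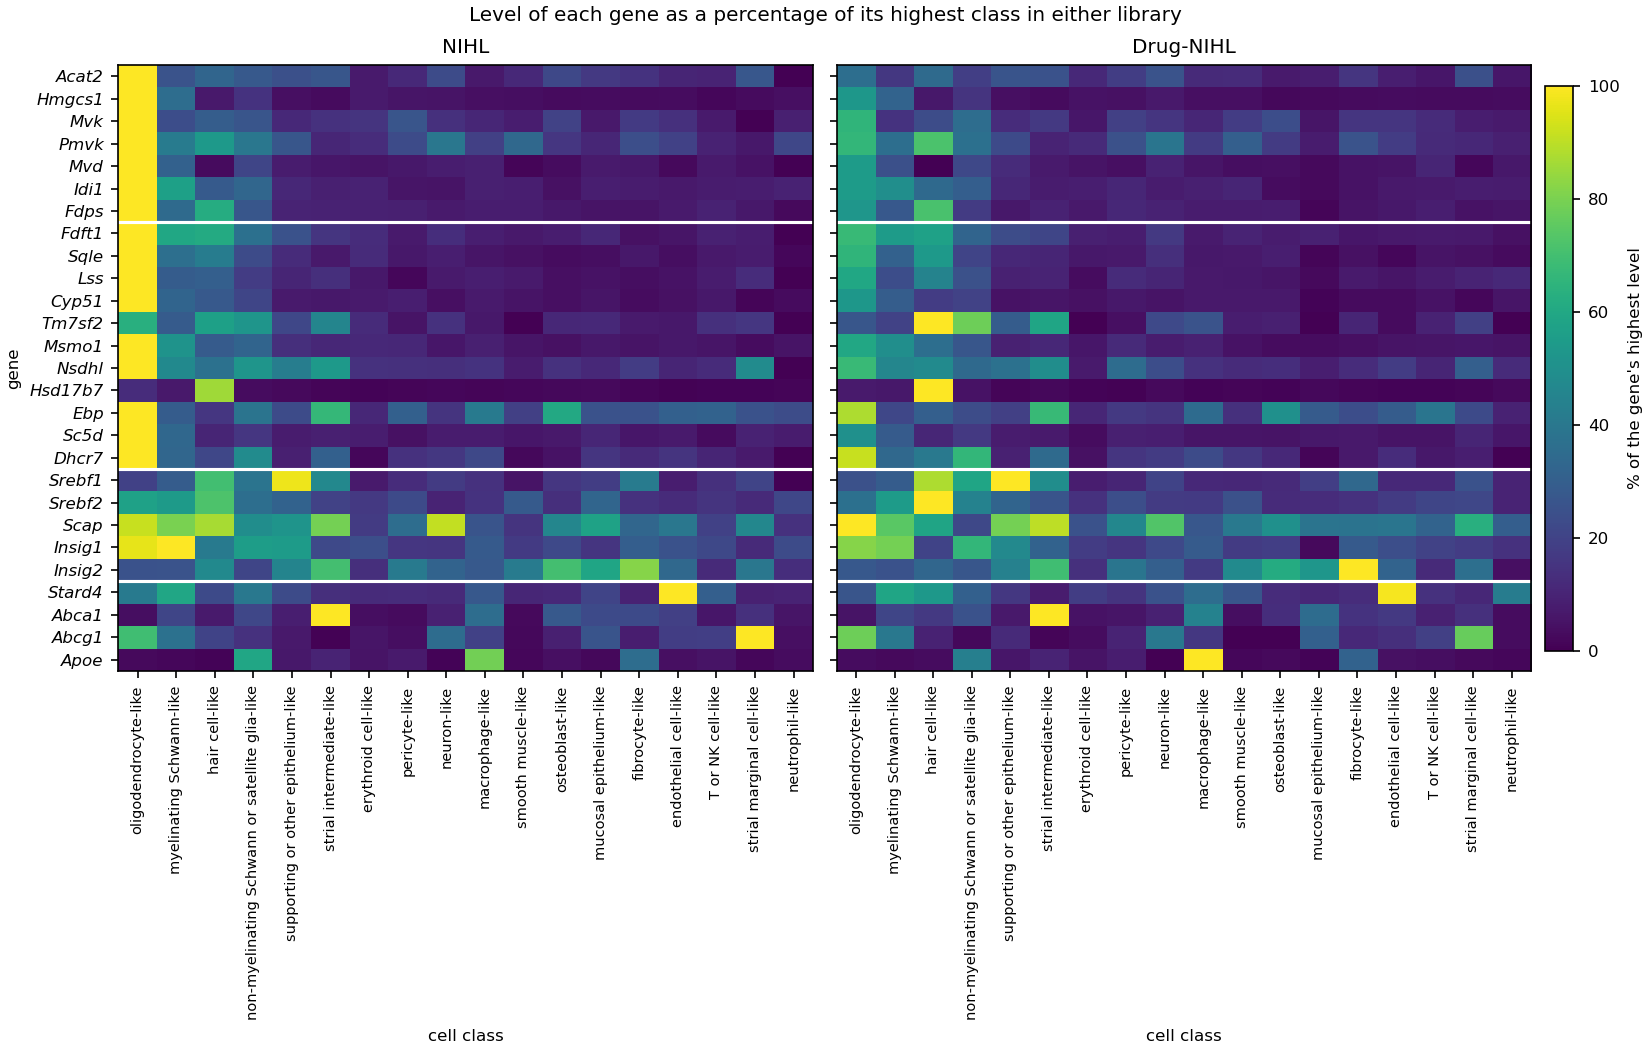
Level of each of the 27 genes in 18 cell classes, as a percentage of that gene's highest class in either library (NIHL left, Drug-NIHL right), with white lines between mevalonate steps, sterol steps, SREBP system and transport genes. The oligodendrocyte-like column is bright for most enzymes in NIHL, while Hsd17b7 is brightest in hair cell-like cells.

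Hsd17b7 departed from the other enzymes. It encodes a reductase of the sterol steps that also acts on estrone. In hair cell-like cells it stood at 645 CPM (564 to 735, 225 UMIs) in NIHL and 752 CPM (662 to 852, 248 UMIs) in Drug-NIHL. The next of the 18 classes, oligodendrocyte-like cells, had 96.7 CPM in NIHL and 55.1 CPM in Drug-NIHL. The lowest of them were endothelial cell-like in NIHL (4.79 CPM) and pericyte-like in Drug-NIHL (3.88 CPM). The hair cell-like level did not come from a few cells, since the cell with most Hsd17b7 UMIs held 4.00% of them in NIHL and 2.42% in Drug-NIHL. At 1000 UMIs drawn from each cell, 51.0% of the NIHL and 56.5% of the Drug-NIHL hair cell-like cells had an Hsd17b7 UMI (80.2% and 71.0% before that, with 4 and 8 shallower cells left out). The same share in oligodendrocyte-like cells was 6.38% in NIHL and 5.36% in Drug-NIHL.

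The promoters of these genes are shown because SREBP and NF-Y bind next to each other in many sterol genes. RefSeq windows of 300 bases (250 before and 50 after the start, build GRCm38.p6) were given for 22 of the 27 genes, among them 15 enzymes. The letters CCAAT, the NF-Y box, were searched on both strands. Counting a gene where any of its windows had a match, they occurred in 14 of the 15 enzymes (93.3%) and in 41.1% of all 27025 gene symbols of the table. The enzyme without a match was Acat2, and some but not all windows of Pmvk and Dhcr7 lacked one. The only Tm7sf2 window, and the only Dhcr7 window with a match, lie inside the annotated gene and not upstream of it. The letters TCACNCCAC, a form of the sterol regulatory element that does not overlap a CCAAT match in Hmgcs1, occurred in 1 of the 15 (Hmgcs1) and in 1.44% of all gene symbols. A match is a description of letters and not a bound site. The upstream stretches of 4 enzymes and of Apoe follow, with matches in capitals (ATTGG is CCAAT on the other strand): Hmgcs1 at chr13:119690101-119690350 (plus strand) with the highest level in oligodendrocyte-like cells and matches of both motifs, Mvd at chr8:122443423-122443672 (minus strand), Sc5d at chr9:42264301-42264550 (minus strand), Hsd17b7 at chr1:169969242-169969455 (minus strand), which differed from the others in its class, and Apoe at chr7:19699189-19699438 (minus strand), which has neither motif.
Hmgcs1: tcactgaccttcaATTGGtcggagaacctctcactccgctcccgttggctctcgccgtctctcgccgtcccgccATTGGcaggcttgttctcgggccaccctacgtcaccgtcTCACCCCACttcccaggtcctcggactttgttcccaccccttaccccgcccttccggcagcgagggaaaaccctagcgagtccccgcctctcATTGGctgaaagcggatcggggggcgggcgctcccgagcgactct
Mvd: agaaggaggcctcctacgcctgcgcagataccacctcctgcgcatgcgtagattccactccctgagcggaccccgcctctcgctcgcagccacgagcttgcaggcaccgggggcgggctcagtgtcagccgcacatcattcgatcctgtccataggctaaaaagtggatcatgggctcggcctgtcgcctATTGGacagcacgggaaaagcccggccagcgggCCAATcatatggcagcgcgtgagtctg
Sc5d: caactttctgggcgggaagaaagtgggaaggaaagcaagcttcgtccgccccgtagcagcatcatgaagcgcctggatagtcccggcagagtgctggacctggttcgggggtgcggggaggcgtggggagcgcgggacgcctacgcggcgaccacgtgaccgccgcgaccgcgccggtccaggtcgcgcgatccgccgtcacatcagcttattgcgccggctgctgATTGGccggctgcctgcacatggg
Hsd17b7: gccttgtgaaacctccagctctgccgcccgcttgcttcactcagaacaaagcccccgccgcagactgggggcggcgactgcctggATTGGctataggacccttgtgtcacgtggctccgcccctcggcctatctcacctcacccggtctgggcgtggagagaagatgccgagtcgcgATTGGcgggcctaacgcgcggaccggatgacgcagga
Apoe: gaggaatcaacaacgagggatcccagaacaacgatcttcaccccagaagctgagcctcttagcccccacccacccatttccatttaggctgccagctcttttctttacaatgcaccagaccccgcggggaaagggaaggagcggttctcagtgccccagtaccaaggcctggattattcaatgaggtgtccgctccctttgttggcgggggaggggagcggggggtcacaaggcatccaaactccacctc
The Hsd17b7 promoter holds the same CCAAT letters as promoters of the oligodendrocyte-high enzymes Mvd and Sc5d.

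The SREBP system genes did not share 1 leading class among the 18 classes. Srebf2, whose protein is the main activator of the enzyme genes, was highest in hair cell-like cells at 175 CPM in NIHL and 243 CPM in Drug-NIHL. Oligodendrocyte-like (139 CPM) and myelinating Schwann-like cells (132 CPM) were next in NIHL and overlapped it, and neuron-like cells were lowest at 24.2 CPM. Srebf1, better known for fatty acid genes, was highest in supporting cell or other epithelium-like cells (148 and 152 CPM). Insig1, itself an SREBP target, led in myelinating Schwann-like cells in NIHL (182 CPM) and in oligodendrocyte-like cells in Drug-NIHL (149 CPM), with overlap between these classes in each library. Astrocyte-like cells, outside the 18 classes, had more Insig1 in Drug-NIHL, at 298 CPM (232 to 377), and 1 UMI in NIHL. Insig2 was highest in fibrocyte-like cells at 128 CPM in NIHL and 157 CPM in Drug-NIHL. Scap was low, with a top among these classes of 33.2 CPM in NIHL and 36.3 CPM in Drug-NIHL. Each was in oligodendrocyte-like cells and overlapped the next class. Outside the 18 classes Scap reached 45.6 CPM in unnamed cluster 2 in NIHL. In Drug-NIHL it was at 60.5 CPM in astrocyte-like and 64.2 CPM in choroid plexus-like cells, from 14 and 9 UMIs.

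The transport genes each had another leading class among the 18 classes. Apoe was highest in macrophage-like cells at 23750 CPM in NIHL and 30150 CPM in Drug-NIHL, then in non-myelinating Schwann or satellite glia-like cells (17830 and 12980 CPM) and fibrocyte-like cells (10790 and 9453 CPM). Neuron-like cells had the lowest Apoe, at 313 and 107 CPM. Abca1 was highest in strial intermediate-like cells, the melanocyte-like cells of the stria vascularis, with 272 CPM (241 to 306) in NIHL and 273 CPM (245 to 303) in Drug-NIHL. Macrophage-like cells came next at 97.3 and 120.4 CPM. Abcg1, by contrast, was at 0.990 CPM in NIHL strial intermediate-like cells, its lowest class there, and highest in strial marginal-like (129 CPM) and oligodendrocyte-like cells (89.7 CPM), which overlapped. Stard4, a carrier of sterol between membranes, was highest in endothelial cell-like cells at 51.2 and 50.5 CPM, ahead of myelinating Schwann-like cells at 30.2 and 30.1 CPM.

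**Figure D3:**
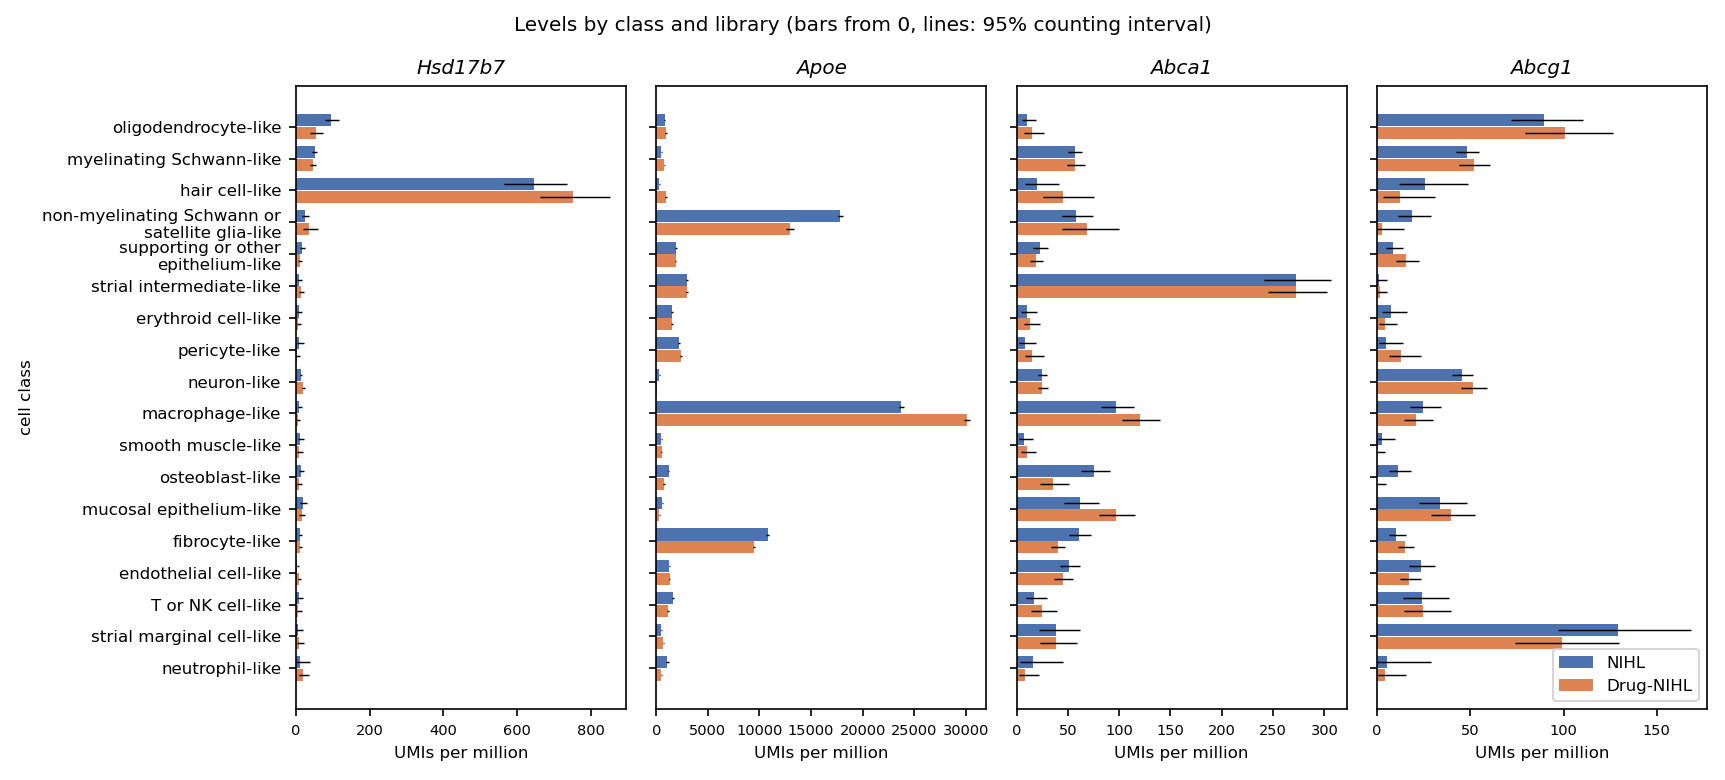
Levels (CPM, bars from 0) of Hsd17b7, Apoe, Abca1 and Abcg1 in 18 classes in NIHL (blue) and Drug-NIHL (orange), with lines for the 95% counting interval. Each gene has another leading class: hair cell-like (645 and 752), macrophage-like (23750 and 30150), strial intermediate-like (272 and 273), and strial marginal-like with oligodendrocyte-like.

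Likeness to the summed enzymes was measured as the Pearson correlation of log2 CPM over the 18 classes, once in each library, as a description: the classes of a library share its capture and sequencing, and each enzyme is part of the sum. Among the members it was 0.958 in NIHL and 0.952 in Drug-NIHL for Msmo1, the methylsterol oxidase, and 0.930 and 0.922 for Idi1, the isomerase of isopentenyl diphosphate. Ebp, which shifts a sterol double bond, was the enzyme that followed the sum least, at 0.300 and 0.305. Srebf2 stood at 0.795 and 0.854, above Srebf1 (0.402 and 0.509). Insig2 (-0.123 and -0.004), Apoe (-0.124 and 0.056) and Abca1 (-0.130 and 0.041) did not follow it. Among 7727 genes with enough UMIs, the genes outside the list with the most similar pattern included Pcyt2 (0.874 and 0.901), Sox2ot (0.909 and 0.871), Sccpdh (0.872 and 0.863), Ado (0.841 and 0.868), Sirt2 (0.883 and 0.839), Hepacam (0.836 and 0.875) and Tuba1a (0.841 and 0.828).

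For Drug-NIHL against NIHL, genes whose sums held 20 UMIs or more together were sorted by size alone, without a test: higher from a log2 ratio of CPM of 0.32 upward, lower from -0.32 downward. Over all cells the summed enzymes stood at 1231 CPM in NIHL and 959 CPM in Drug-NIHL, a ratio of 0.779 (0.767 to 0.791). Of the 18 enzymes 6 were lower (Hmgcs1, Cyp51, Fdps, Idi1, Sc5d and Msmo1, with ratios of 0.710 to 0.777) and 0 higher. Of all 17256 genes measured, 9.72% were lower and 12.0% higher. The enzymes' median log2 ratio was -0.24, against -0.03 for all genes. The 5 SREBP system genes and 4 transport genes all lay between the bounds. The share of cells in each class differed between the libraries: with clusters weighted as in NIHL the ratio of the sum was 0.881 and 0 of the 18 enzymes were lower. Within classes, the interval of the ratio lay below 1 in 6 of the 18 classes, above 1 in 2 (neuron-like and hair cell-like) and across 1 in 10.

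Oligodendrocyte-like cells had the lowest ratio of summed enzymes among the 18 classes, 0.566 (0.543 to 0.591), from 7203 UMIs in NIHL and 3058 in Drug-NIHL. Its interval overlapped that of mucosal epithelium-like cells. All 7 mevalonate enzymes and 9 of the 11 sterol enzymes were lower, so 16 of 18 enzymes were lower and 0 higher, where 29.1% of all 7634 genes measured in this class were lower and 15.4% higher. The median log2 ratio was -0.77 for the enzymes and -0.11 for all genes. Hmgcs1 was at 2247 CPM (2154 to 2342) in NIHL and 1188 CPM (1111 to 1269) in Drug-NIHL, a ratio of 0.529 (0.489 to 0.572). The intervals of the libraries were far apart for this gene. Sc5d, the lathosterol desaturase, was at 478 CPM in NIHL and 239 CPM in Drug-NIHL (0.501, 0.419 to 0.596). Fdps was at 841 and 442 CPM (0.526, 0.461 to 0.598). Cyp51, which removes a methyl group from lanosterol, was at 682 and 360.1 CPM (0.528, 0.457 to 0.609). Idi1 was at 647 and 356 CPM (0.551, 0.475 to 0.636). Acat2, the thiolase that feeds the pathway, had the lowest ratio of the enzymes, 0.362 (0.206 to 0.608), from 70 and 19 UMIs. Ebp (0.877) and Dhcr7 (0.916), which encodes the last reductase, stayed between the bounds with intervals across 1.

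The regulators of this class did not share a direction. Srebf2 was lower, at 139 CPM (117 to 164) in NIHL and 90.0 CPM (69.8 to 114) in Drug-NIHL, a ratio of 0.648 (0.476 to 0.873). Srebf1 was past the bound in the other direction at 29.2 and 37.6 CPM, with an interval across 1 (0.738 to 2.24). Insig1 had a ratio of 0.851 (0.664 to 1.09), and Scap (1.09) and Insig2 (1.09) lay between the bounds. Abcg1 was at 89.7 and 101 CPM (1.12, 0.815 to 1.54). Apoe was at 822 and 951 CPM (1.16, 1.05 to 1.28), but 1 cell held 26.1% of its NIHL UMIs, and its ratio was 1.48 without the top cell of each library and 0.590 with sub-clusters weighted as in NIHL.

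**Figure D4:**
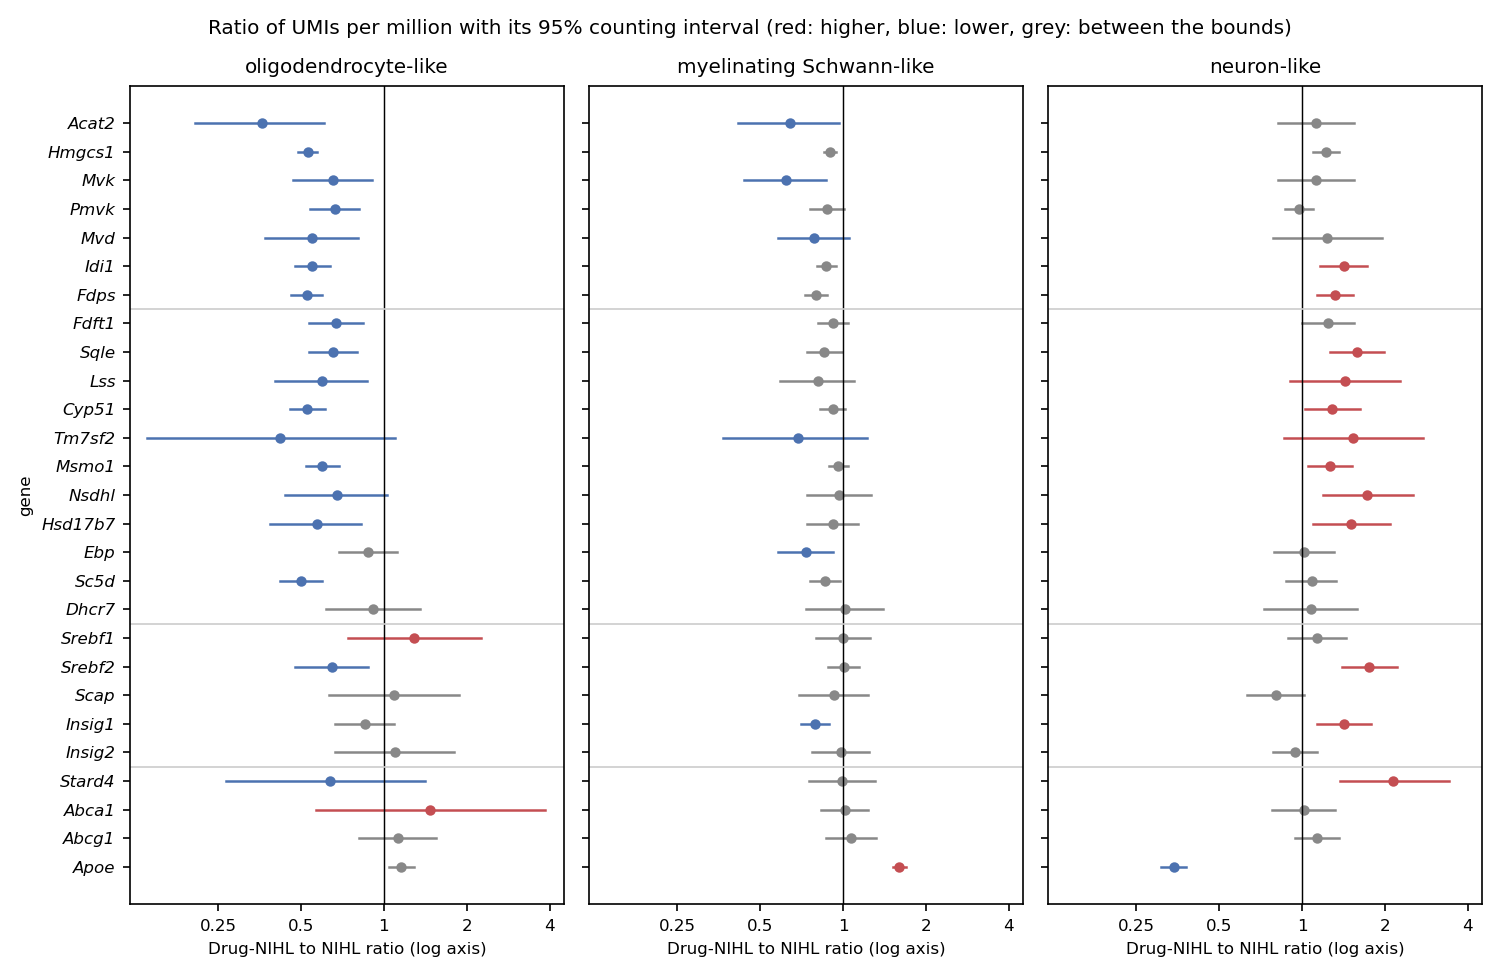
Ratio of Drug-NIHL to NIHL CPM (log axis) for each of the 27 genes in oligodendrocyte-like, myelinating Schwann-like and neuron-like cells, with lines for the 95% counting interval; red marks genes past the upper size bound, blue past the lower and grey between. In oligodendrocyte-like cells 16 of 18 enzymes are blue, in neuron-like cells 9 are red.

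The lower sum was also found within groups of oligodendrocyte-like cells. A sub-clustering without the 27 genes gave 8 groups, and the enzyme sum was lower in Drug-NIHL in 8 of 8, with intervals apart in 7. Sub-cluster 0 (82 NIHL and 20 Drug-NIHL cells) was at 8701 and 5935 CPM, and sub-cluster 2 (74 and 65 cells) at 6649 and 5371 CPM. Sub-cluster 7 (13 and 115 cells) was at 3816 and 2324 CPM. This sub-cluster held the most Ptgds, a prostaglandin D synthase gene, at 25880 and 82760 CPM. It also held the most Il33 in Drug-NIHL, 919.9 CPM against 269 CPM in NIHL. Its enzyme sum was at the low end in each library, with intervals that overlapped those of sub-cluster 6 in NIHL and sub-cluster 4 in Drug-NIHL, and it held more cells of the Drug-NIHL class. With sub-clusters weighted as in NIHL the ratio of the sum was 0.705. Which cells made up the class thus moved with the ratio, and its part in the result was not tested. Cells also differed within sub-clusters, where Ptgds was higher in Drug-NIHL in 8 of 8. It was at 7387 and 20240 CPM in sub-cluster 1, and at 9814 and 12890 CPM in sub-cluster 6. The sub-clusters are therefore not like-for-like sets of cells, and some are small (6 and 4 cells in sub-cluster 4). The part of this difference in the enzyme sums was not tested.

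**Figure D5:**
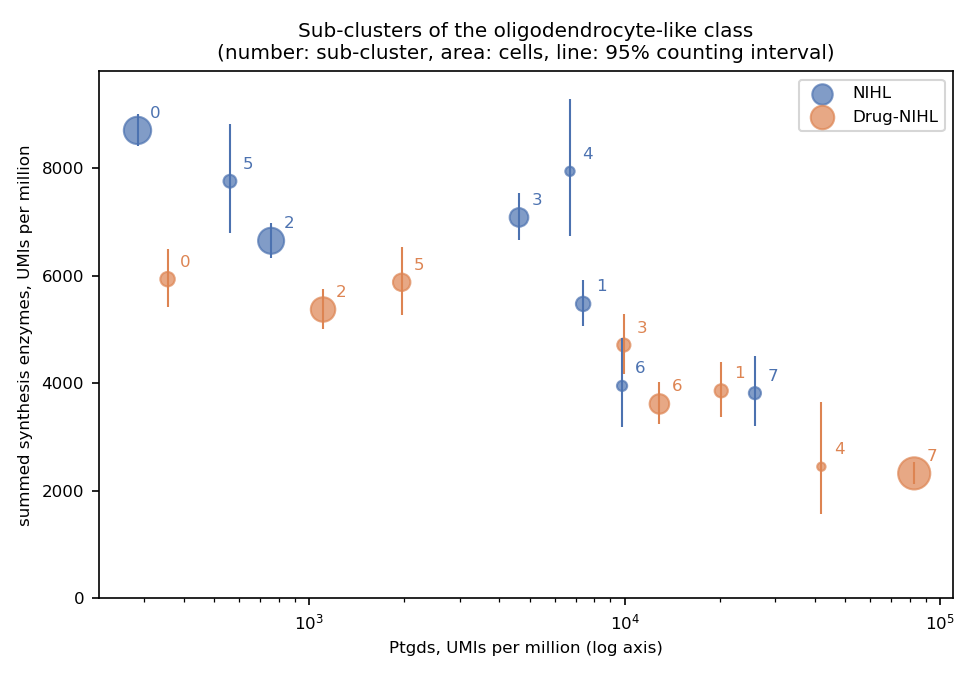
Summed enzymes against Ptgds (log axis), both in CPM, for the 8 sub-clusters of oligodendrocyte-like cells in NIHL (blue) and Drug-NIHL (orange); numbers name the sub-cluster, area shows its cells and lines the 95% counting interval. Sub-cluster 7, with 115 Drug-NIHL cells, has the highest Ptgds and a sum of 2324 in Drug-NIHL.

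Depth and quality differed in this class and are given beside the result. The median was 3833 UMIs per cell in NIHL and 2252 in Drug-NIHL, and mitochondrial genes held 3.04% and 4.93% of the class's UMIs. Within bands of depth the sum was lower in Drug-NIHL in 4 of 4 bands that held cells of both libraries: 6585 and 4243 CPM from 2000 to 4000 UMIs, and 7841 and 4568 CPM from 4000 to 8000 UMIs. At 1000 UMIs per cell, 80.0% of NIHL and 58.2% of Drug-NIHL cells had an Hmgcs1 UMI (93.7% and 71.0% before, with 19 and 27 shallower cells left out). The summed markers of the class were at 14120 and 14050 CPM, a ratio of 0.995, over members that differed both ways: Opalin was at 69.5 and 557.6 CPM and Aspa at 455 and 641 CPM, while Ugt8a was at 2033 and 1537 CPM. Summed myelinating Schwann markers in these cells were at 7205 and 5681 CPM (0.788), and those of neurons at 724 and 435 CPM (0.601). Erythroid markers were at 8124 and 15580 CPM (1.92), osteoblast markers at 105 and 249 CPM (2.37), astrocyte markers at 188 and 247 CPM (1.31), and the strial intermediate list, which holds Ptgds, at 3355 and 30440 CPM (9.07). Their part in the enzyme values was not tested. Mbp, a myelin protein gene, was at 4276 and 3796 CPM.

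Other sterol and lipid genes of the oligodendrocyte-like class, from lists of 6 to 11 genes, are read against the 29.1% lower and 15.4% higher of all genes in this class. Of 11 fatty acid synthesis genes, 9 were measured, 3 lower and 1 higher, with a median log2 ratio of -0.10, near those shares. Among them Acss2, an acetyl-CoA synthetase, was at 127 and 75.2 CPM (0.593), Me1, which supplies NADPH, had a ratio of 0.525, and Scd2, a desaturase, was at 2400.0 and 2585 CPM (1.08). Both measured oxysterol genes were lower, among them Cyp27a1, a sterol hydroxylase, at 122 and 65.8 CPM (0.540). Of 7 measured genes for processing and degradation of SREBP and its partners 1 was higher and 1 lower, of 9 measured traffic genes 1 higher and 2 lower, and of 6 measured isoprenoid branch genes 0 higher and 2 lower. Of the LXR list 3 of 9 genes were measured, 1 of them higher.

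Myelinating Schwann-like cells, the other myelin-forming class, had a ratio nearer 1. The enzyme sum was 2848 CPM (2801 to 2895) in NIHL and 2513 CPM (2455 to 2572) in Drug-NIHL, a ratio of 0.882 (0.858 to 0.908). Of 18 enzymes 5 were lower and 0 higher, where 13.6% of all 11101 genes were lower and 13.6% higher, and 17 of 18 had a log2 ratio below 0. Mvk, the mevalonate kinase, was at 27.6 and 17.1 CPM (0.620, 0.438 to 0.865), although in cells with at least 1000 genes its ratio was 1.80. Ebp was at 52.0 and 38.1 CPM (0.733, 0.580 to 0.920), and 0.999 in those cells. Hmgcs1 was at 799.5 and 717 CPM (0.897, 0.850 to 0.947), between the bounds. Insig1 was lower, at 182 and 144 CPM (0.790, 0.702 to 0.889), while Srebf2 was at 132 and 133 CPM (1.01, 0.884 to 1.14). The sum was lower in Drug-NIHL in each of the 4 clusters that form this class, for example at 2952 and 2591 CPM in cluster 3 and 3238 and 2769 CPM in cluster 12. It was also lower in 3 of 3 depth bands. Mitochondrial genes held 6.44% of the class's UMIs in NIHL and 9.20% in Drug-NIHL, and the summed markers of the class were at 49450 and 43470 CPM (0.879), close to the ratio of the enzymes.

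Apoe was the transport gene past the size bound in myelinating Schwann-like cells: 500 CPM (480.5 to 520.1) in NIHL and 802 CPM (769 to 835) in Drug-NIHL, a ratio of 1.60 (1.51 to 1.70). By cluster it was at 369 and 677 CPM in cluster 3, 575 and 971 CPM in cluster 4, 504 and 804 CPM in cluster 5, and 618 and 614 CPM in cluster 12, with a ratio of 0.994 (0.824 to 1.19) there. Markers of the 3 classes with most Apoe did not share 1 direction in these cells: those of non-myelinating Schwann cells or satellite glia were at 781 and 765 CPM (0.979), summed fibrocyte markers were at 229 and 713 CPM (3.12), with 0 of 12 at 0 in each library, and summed macrophage markers at 67.0 and 90.6 CPM (1.35). Their part in the Apoe value was not tested. Apod, another lipid carrier gene, was at 225 and 476 CPM (2.12). Abca1 and Abcg1 had ratios of 1.02 and 1.07, with intervals across 1.

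Neuron-like cells, 451 in NIHL and 457 in Drug-NIHL, had more enzyme UMIs in Drug-NIHL. The sum was 613 CPM (593 to 634) in NIHL and 743 CPM (718 to 769) in Drug-NIHL, a ratio of 1.21 (1.16 to 1.27). Of 18 enzymes 9 were higher and 0 lower, against 14.5% higher and 11.7% lower of 12028 genes, and 17 of 18 lay above 0. Of the sterol enzymes 7 of 11 were higher, and of the mevalonate enzymes 2 of 7. Srebf2 was at 24.2 CPM (20.3 to 28.7) in NIHL and 42.4 CPM (36.5 to 48.9) in Drug-NIHL, a ratio of 1.75 (1.39 to 2.21). Stard4 was at 6.00 and 12.9 CPM (2.15, 1.37 to 3.41), from 33 and 56 UMIs. Sqle, the squalene epoxidase, was at 25.8 and 41.0 CPM (1.59, 1.27 to 1.99). The libraries' intervals did not overlap for Srebf2, Stard4 or Sqle. Nsdhl, a sterol dehydrogenase, was at 9.46 and 16.3 CPM (1.73, 1.19 to 2.52), Idi1 at 35.3 and 50.0 CPM (1.42, 1.16 to 1.73), and Insig1 at 28.4 and 40.3 CPM (1.42, 1.14 to 1.77). Hmgcs1, whose ratio was 0.529 in oligodendrocyte-like cells, was at 123 and 150.1 CPM here (1.22, 1.10 to 1.36), between the bounds.

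Among depth bands, the neuron-like difference was clear of counting error only in the deepest cells. Among cells of at least 8000 UMIs the sum was 603 CPM in 397 NIHL cells and 736 CPM in 342 Drug-NIHL cells, while from 4000 to 8000 UMIs it was 787 CPM in each library. The deepest band has no upper limit, and the class had a median of 12750 UMIs in NIHL and 9867 in Drug-NIHL. Depth was thus not matched between the libraries within that band. Of 5 depth bands, 3 were lower and 2 higher in Drug-NIHL, but the intervals overlapped in every band except the deepest. The lower bands included the one from 4000 to 8000 UMIs (787.3 and 786.6 CPM). They also included shallower ones of few cells, such as 8 and 12 cells from 1000 to 2000 UMIs. At 1000 UMIs per cell the mean enzyme count was 0.729 in NIHL and 0.718 in Drug-NIHL, and 48.9% and 47.9% of cells had an enzyme UMI (leaving out 5 and 6 shallower cells). The higher level in Drug-NIHL was not seen there. This was a single random draw that kept less than 1 enzyme UMI per cell on average. Its means have no interval, so it cannot decide whether the difference holds at equal depth. The summed markers of the class were at 16120 and 15300 CPM, and those of myelinating Schwann cells, which wrap these neurons, at 3123 and 2666 CPM. The counts of the other lists are read against the 14.5% higher and 11.7% lower of all genes in this class. Of the lipoprotein receptor genes, 6 of 7 were measured, 2 higher and 1 lower; Lrp8 and Vldlr, receptors of APOE-bearing particles and of reelin, had ratios of 1.56 and 1.65. Among 11 fatty acid genes, 2 were higher and 0 lower, and Elovl5 had a ratio of 1.53.

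Apoe went the other way in neuron-like cells: 313 CPM (298 to 328) in NIHL and 107 CPM (97.7 to 118) in Drug-NIHL, a ratio of 0.343 (0.309 to 0.38). With predicted doublets kept the ratio was 0.893. Marker sums of the classes with most Apoe differed in these cells. Macrophage markers were at 62.4 and 18.4 CPM (0.295). Those of non-myelinating Schwann cells or satellite glia were at 283 and 294 CPM (1.04), and fibrocyte markers at 100.2 and 89.1 CPM (0.889). Choroid plexus markers were at 602.5 and 22.6 CPM, and erythroid markers at 2354 and 130.3 CPM. The share of cells with an Apoe UMI at 1000 UMIs per cell was 10.3% and 6.65%, against 91.5% and 94.2% in macrophage-like cells. Before thinning, 35.9% of NIHL and 36.8% of Drug-NIHL neuron-like cells had an Apoe UMI. The top cell held 14.9% of these UMIs in NIHL and 11.2% in Drug-NIHL. The part of RNA from other cells in these neuron values was not tested.

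Hair cell-like cells (106 in NIHL and 155 in Drug-NIHL) had an enzyme sum of 2561 CPM (2396 to 2735) in NIHL and 2903 CPM (2722 to 3093) in Drug-NIHL, a ratio of 1.13 (1.03 to 1.24). Of 14 enzymes measured 6 were higher and 1 lower, where 21.3% of 5831 genes were higher and 26.5% lower. With depth bands weighted as in NIHL the ratio was 0.914, so no direction is read from it. Hsd17b7 had a ratio of 1.17 (0.969 to 1.40) and Fdps 1.15 (0.936 to 1.42). Cyp51 was lower at 189 and 121 CPM (0.641, 0.422 to 0.964). Srebf2 was at 175 and 243 CPM (1.39, 0.982 to 1.97). Apoe was at 316 CPM (259 to 380) in NIHL and 949.5 CPM (847 to 1061) in Drug-NIHL, a ratio of 3.01 (2.42 to 3.78), with 32.6% of its Drug-NIHL UMIs in 1 cell and a ratio of 4.54 with depth bands weighted as in NIHL. Summed macrophage markers were at 40.2 and 337 CPM (8.39) in the same cells, with 6 of 10 at 0 in NIHL and 1 of 10 in Drug-NIHL. Fibrocyte markers were at 232 and 810 CPM (3.49), while those of non-myelinating Schwann cells or satellite glia were at 384.3 and 227.5 CPM (0.592). Their part in the Apoe value was not tested.

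Non-myelinating Schwann or satellite glia-like cells (1212 and 499 cells) had a sum of 1758 and 1601 CPM (0.911, 0.830 to 0.998), with 5 of 18 enzymes higher and 4 lower. Among all 7566 genes 20.2% were higher and 27.7% lower, so the enzymes did not stand apart. Fdps was the enzyme named there, at 227 and 147 CPM (0.649, 0.476 to 0.871). Apoe was at 17830 and 12980 CPM (0.728, 0.705 to 0.751), and its ratio was 0.298 in cells with at least 1000 genes. Astrocyte-like cells (26 and 200 cells) had a sum of 1879 CPM (1430 to 2423, 59 UMIs) and 2705 CPM (2497 to 2925, 626 UMIs), a ratio of 1.44 (1.10 to 1.91). In these cells summed erythroid markers were at 63110 and 34920 CPM (0.553) and fibrocyte markers at 318 and 1517 CPM (4.76). The class's own markers summed to 15670 and 14340 CPM (0.915, 0.832 to 1.008), over members that differed both ways. Slc1a3 was at 4298 and 484 CPM and Aldoc at 4044 and 2627 CPM. By contrast, Aqp4 was at 1178 and 2277 CPM and Slc1a2 at 2356 and 3176 CPM. The part of these differences in the enzyme sum was not tested. Insig1 was at 1 UMI in NIHL and 69 in Drug-NIHL there, a ratio of 9.36 with an interval of 1.63 to 375, and of 2.38 with predicted doublets kept.

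Outside the glia and neurons the enzyme sum was lower in mucosal epithelium-like cells, at 496 and 286 CPM (0.578, 0.50 to 0.667), and in erythroid-like cells, at 651 and 444 CPM (0.682, 0.599 to 0.776). In erythroid-like cells the median log2 ratio of all genes was -0.198, and the enzyme ratio was 0.536 to 0.788 under other processing choices. Mucosal epithelium-like cells also differed in Clu, at 1265 and 11830 CPM. The part of these differences in the enzyme sums was not tested. In mucosal epithelium-like cells Srebf2 was at 79.1 and 30.5 CPM (0.386, 0.251 to 0.584), while Abca1 was at 61.7 and 96.6 CPM (1.57, 1.12 to 2.21). Supporting cell or other epithelium-like cells, which surround the hair cells, were at 753 and 646 CPM (0.857, 0.792 to 0.927), with Fdps (0.640), Cyp51 (0.678) and Msmo1 (0.701) lower. Abca1 was lower in osteoblast-like cells, at 75.8 and 35.2 CPM (0.465, 0.294 to 0.712), and in fibrocyte-like cells, at 61.3 and 40.1 CPM (0.654, 0.511 to 0.838). Under other processing choices the fibrocyte-like ratio of Abca1 was 0.632 to 0.909. In the class that leads Abca1, strial intermediate-like cells, its ratio was 1.0 (0.853 to 1.18). Apoe was higher in 4, lower in 6 and between the bounds in 8 of the 18 classes. Macrophage-like cells, which lead it, had a ratio of 1.27 (1.25 to 1.29). Choroid plexus-like cells (55 in each library) had 3904 and 12420 CPM (3.18, 2.98 to 3.40). The cells of this class were unlike in depth, with a median of 9226 UMIs in NIHL and 2283 in Drug-NIHL. The median log2 ratio of all genes there was 0.398, itself past the size bound. The part of these differences in the Apoe ratio was not tested.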

How the data were processed

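Single cells of 2 libraries (10x 3′ chemistry v3.1) were deposited as unnormalized UMI counts for each gene in each barcode, with Cell Ranger 5.0.1 named per the file headers. Per the submitters' processing notes, mm10 and GRCm38 were the builds, and the tools included Seurat 3.2.2, STAR and Cell Ranger 5.0, with no role stated. How barcodes were filtered before deposit is not stated; the smallest total was 500 UMIs in each library. The 18545 NIHL and 21773 Drug-NIHL barcodes held 38380393 and 39939170 UMIs, where about 20000 recovered cells are stated per the labels' protocols.

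Barcodes with at least 300 genes and 500 UMIs (17667 and 20522) and at most 20% mitochondrial UMIs (17423 and 20133) were kept, and cells called doublets by Scrublet in scanpy 1.11.5 (805 and 2597, expected rate 0.08) were removed. A class sum of 0 allows up to 3 counts, 0.0888 and 0.0976 CPM over all cells. Both libraries were clustered together without the 27 genes (3000 variable genes, 30 principal components, 15 neighbours, Leiden resolution 1, 38 clusters). A cluster needed 3 markers at 2 times the level of other cells to be named, and 9 stayed unnamed. UMIs were summed by class and library. Intervals are exact Poisson (levels) and exact conditional binomial (ratios), at 95%; log2 ratios use 0.5 UMI added. With 1 library per group, no p-value was computed. The computations were tested on simulated data with known ratios.

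In each class the text names members whose larger sum reached 50 UMIs, up to 6 in each direction ordered by the interval bound nearest 1, and up to 2 genes per other list and direction; for levels, the highest and lowest class. The other genes printed (markers, neighbours in the order, and members outside that rule) were chosen after their values were seen. The 27 members and the lists were chosen with earlier results of these data known. Of the 8 genes most like the sum, 1 is not reported here. The annotation GENCODE M21 held 32235 of the 32285 identifiers; exons of 3 members overlap another gene on the same strand (Tm7sf2 with Vps51, Fdps with Gm43738, Srebf1 with Mir6922) and those of 6 others a gene on the opposite strand, so their counts are less certain. Alternatives were other normalizations (TMM in edgeR 4.0.16, R 4.3.3), cell filters, resolutions and weights. Further tools were matplotlib 3.10.9, igraph 0.11.9, scikit-learn 1.9.0, pandas 2.3.3, scipy 1.17.1 and numpy 2.4.6 under Python 3.11.15.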

Additional observations from a re-analysis of the deposited data

Results flagged for a closer look

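The summed synthesis enzymes had a Drug-NIHL to NIHL ratio of 0.566 in oligodendrocyte-like cells and 1.21 in neuron-like cells, so these classes moved in opposite directions under the same contrast. With 1 library per group the difference between the classes was not tested.

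Apoe had a ratio of 1.60 in myelinating Schwann-like cells and 0.343 in neuron-like cells, also opposite in direction and not tested. With predicted doublets kept, the neuron-like ratio was 0.893.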

How the results depend on the processing

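No paired analysis was possible because each group is 1 pooled library, and for the same reason no replicate could be left out. The weights by depth band and by oligodendrocyte sub-cluster were chosen after seeing the data. The ratio of the summed enzymes over all cells (0.779) was 0.798 with TMM, 0.799 in cells with at least 1000 genes, 0.799 with doublets kept, 0.881 with clusters weighted as in NIHL, 0.744 by depth bands, 0.739 as a mean over cells and 0.725 at a mitochondrial share of at most 10%. In oligodendrocyte-like cells (0.566) it was 0.611 with TMM, 0.605 with at least 1000 genes, 0.603 by depth bands, 0.705 by sub-clusters and 0.528 with doublets kept. In myelinating Schwann-like cells (0.882) it was 0.685 with at least 1000 genes, 0.849 with at least 500 and 0.909 without mitochondrial UMIs in the total. In non-myelinating Schwann or satellite glia-like cells (0.911) it was 0.795 with at least 1000 genes and 1.03 by depth bands, and in hair cell-like cells (1.13) it was 0.914 by depth bands. In neuron-like cells it was 1.17 to 1.22 under these alternatives, a mean over cells among them. They do not include the thinning to 1000 UMIs per cell, a single random draw, where the means were 0.729 in NIHL and 0.718 in Drug-NIHL. The level in oligodendrocyte-like cells against all other cells was 6.92 in NIHL (9.46 with at least 1000 genes, 7.48 with at least 500, 7.19 at a mitochondrial share of at most 10%) and 4.67 in Drug-NIHL (6.15, 5.05 and 5.29 under the same filters, 4.28 with doublets kept). The number of lower enzymes was 13 to 17 in oligodendrocyte-like cells (16), and in myelinating Schwann-like cells (5) it was 8 with at least 1000 genes, 8 with at least 500 and 3 at a mitochondrial share of at most 10%. The number of higher enzymes in neuron-like cells (9) was 7 to 10. The number of lower enzymes over all cells (6) was 0 with clusters weighted as in NIHL and 5 to 9 otherwise. Of 889 further values, 746 kept within the interval of the ratio or 1.5 times the count and 141 did not, and among ratios past the size bound 2 turned: Msmo1 in fibrocyte-like cells (1.07 with doublets kept) and Mvk in myelinating Schwann-like cells (1.80 with at least 1000 genes). Apoe, between the bounds, also crossed 1, to 0.59 in oligodendrocyte-like cells (sub-clusters weighted) and 0.895 over all cells (at least 1000 genes). The cause of these moves was not tested. Weights by cluster were not run for classes of 1 cluster, nor other resolutions for all cells. Depth limits the low genes: at 20 UMIs a ratio is uncertain by more than the size bound.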

Other observations

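Clusters without a name also carried the enzymes. Cluster 2, led by Ceacam10, Them5, Igfbp6 and Lama1 (342 NIHL and 519 Drug-NIHL cells), had a sum of 3004 CPM in NIHL and 2764 CPM in Drug-NIHL (0.920, 0.870 to 0.973), above myelinating Schwann-like cells. The myelinating Schwann list scored best in this cluster, with 8 markers past the naming bounds but 0 among its leading genes. Cluster 34, led by Gpr17, Neu4, Tnr and Olig2, genes known from oligodendrocyte precursors (44 and 56 cells), had 1950 and 2436 CPM, a ratio of 1.25 (1.03 to 1.51), while mature oligodendrocyte-like cells had 0.566. The difference between these clusters was not tested.

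Among other apolipoprotein genes, Apod was higher over all cells in Drug-NIHL, at 1824 and 2559 CPM (1.40), and Clu was at 660 and 1164 CPM (1.76), while Apoo was between the bounds (0.853). Most of the added Clu UMIs came from mucosal epithelium-like cells, with 1087 UMIs in NIHL and 14329 in Drug-NIHL of 22298 and 35773 over all cells. Clu was lower in fibrocyte-like (0.778) and strial marginal-like cells (0.385). Lpl, the lipoprotein lipase gene of the LXR list, was at 15.7 and 7.97 CPM (0.508), and Lrp8 at 6.24 and 10.3 CPM (1.65). In fibrocyte-like cluster 32 (145 and 723 cells) Apoe was at 15950 and 8321 CPM.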
